A study of Saccharomyces cerevisiae with 16 samples.

Results

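Yeast cells held at glucose limitation raised transcripts of the serine synthesis genes by 300 s after a glucose pulse. Transcripts of the cytosolic one-carbon enzymes SHM2 and MTD1 and of the glycine cleavage genes GCV1, GCV2 and GCV3 rose as well. The gene of the mitochondrial serine hydroxymethyltransferase passed no test against steady state. The genes described are 10 enzymes and enzyme subunits, SER1 (YOR184W), SER2 (YGR208W), SER3 (YER081W), SER33 (YIL074C), SHM1 (YBR263W), SHM2 (YLR058C), MTD1 (YKR080W), GCV1 (YDR019C), GCV2 (YMR189W) and GCV3 (YAL044C). They were chosen by name from the pathway, as probe sets whose single annotated gene is one of these 10. Each gene had 1 such probe set, so 10 of the 9335 probe sets and 10 of the 5410 genes tested enter the account. All 10 lay above the signal floor on every one of the 16 arrays, though SER3 came close to it, with a lowest signal of 14.4.

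Yeast makes serine from phosphoglycerate, an intermediate of glycolysis, in a short path of dehydrogenase, aminotransferase and phosphatase steps. Serine hydroxymethyltransferase then moves a carbon from serine to tetrahydrofolate (THF), which leaves glycine and methylene-THF, a carbon donor for purines, thymidylate and methionine. The glycine cleavage system of mitochondria breaks glycine down to carbon dioxide, ammonia and a further methylene-THF, so that serine and glycine are both sources of one-carbon units.

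The measurements were made on Affymetrix arrays of Saccharomyces cerevisiae CEN.PK 113-7D, a laboratory strain, grown aerobically in a carbon-limited chemostat at pH 5 and 30 °C with 0.05 of the volume exchanged per hour. All groups share this strain and these culture conditions. Arrays were made at steady state, with no pulse yet given (3 arrays), and at 30 s (2 arrays), 60 s (2), 120 s (3), 210 s (1), 300 s (3) and 330 s (2) after glucose was raised to about 1 g per litre. Per the labels, the 210 s point came from a single culture and every other point from at least 2 independent cultures. The design asks which transcripts move, and how soon, when glucose-limited cells meet glucose.

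Signals below are linear values after each array was scaled to a trimmed mean of 150, with a floor of 12. The trimmed mean as deposited ran from 82.8 to 326 between arrays, and an array had between 1.65% and 4.86% of its genes at the floor. In these bulk cultures a lower share of some cells and less of an RNA per cell cannot be told apart, and neither can a change in total RNA per cell. The experiment file of 300 s replicate 1 carries a sample comment naming benzoic acid under glucose limitation, and those of both 330 s arrays name a fermentation sample by its age and no pulse, which differs from their titles, so results at 300 s are also given without that array. Hybridization day here means the scan day for arrays whose hybridization date was invalid in the experiment file. The 330 s arrays share a hybridization day with no other group, so at 330 s that day and the time point cannot be told apart. All 5 markers of MATa haploid cells lay above the floor on every array, with summed signals of 4346 to 7144 at 300 s and 4371 to 6426 at steady state. Of 3 markers of MATalpha cells, MF(ALPHA)2 was at the floor on all but 2 arrays and STE3 ran from 28.6 to 56.9, while MF(ALPHA)1 ran from 184 to 372. The summed signal of these 3 markers was 356 to 417 at 300 s and 303 to 411 at 330 s, against 233 to 262 at steady state, so it moved with the time points at which the enzymes rose, and its part in those results was not tested. Of 3 sporulation markers SPO11 was too dim to test, SPS4 was above the floor on 2 arrays, and the range of the sum of SPS4 and IME1 at 300 s (52.4 to 93.0) held all steady-state arrays.

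At 300 s, 9 of the 10 genes had risen and 0 had fallen against steady state by limma's moderated test at a Benjamini-Hochberg adjusted p under 0.05, taken over all genes. Over all 5410 genes tested, 12.1% had risen by the same rule and 18.3% had fallen. The same 9 genes had every 300 s array above every steady-state array, which 14.1% of all genes had. Their adjusted p-values ran up to 0.00437, and the median log2 change over the 10 genes was 1.16, beside -0.12 over all genes. SHM1 was the gene that did not pass.

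**Figure D1:**
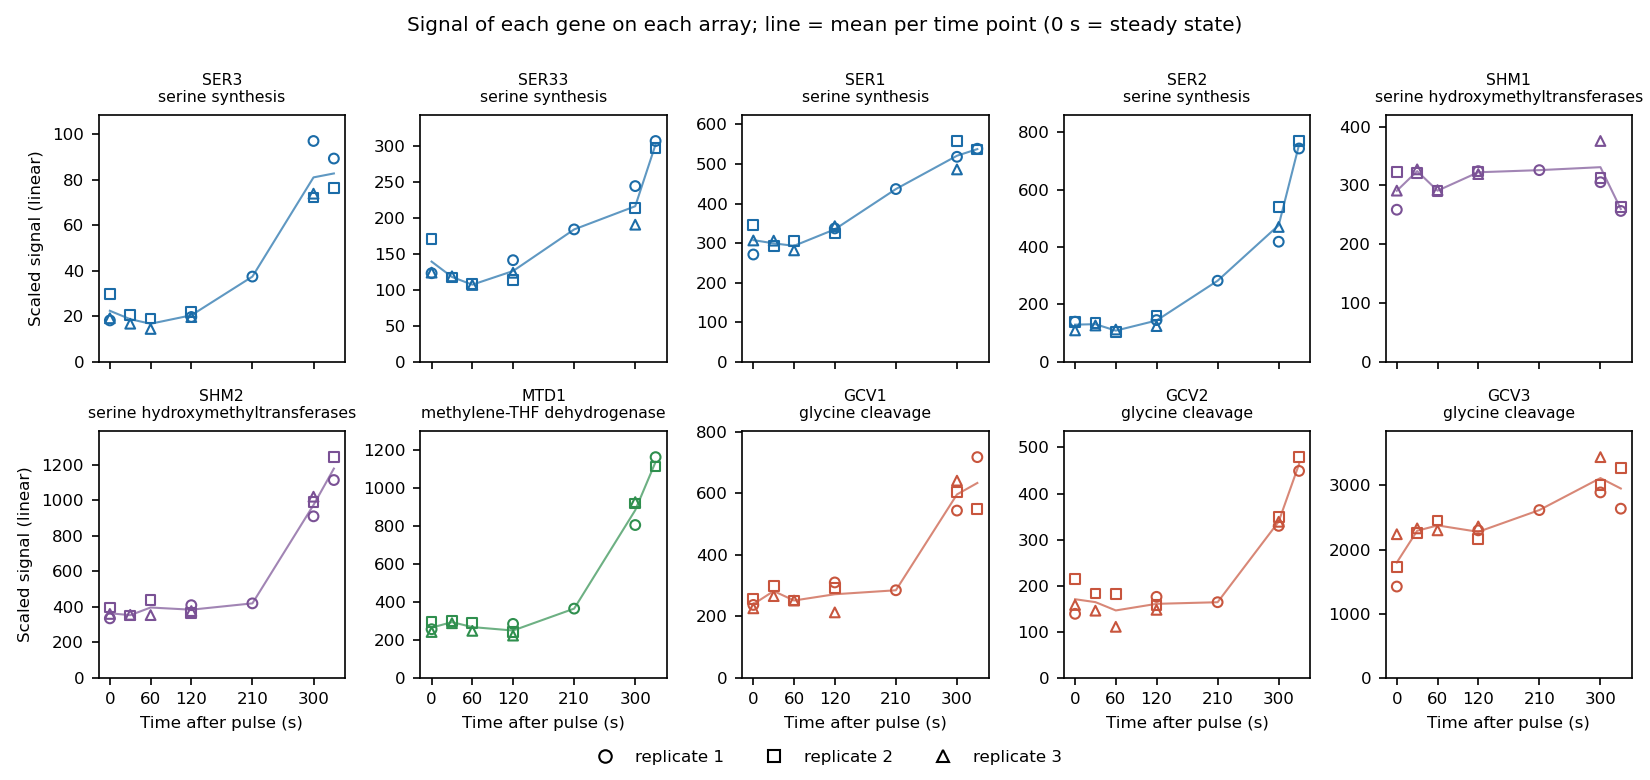
Scaled linear signal (y axis, from 0) of each of the 10 genes on each array against time after the pulse in s (x axis, 0 is the steady state); points are arrays, with the shape giving the replicate number, and lines join the means per time point. In 9 panels the 300 s and 330 s arrays sit above all steady-state arrays, and SHM1 stays between 257 and 376 throughout.

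The path from phosphoglycerate to serine rose at each of its steps. SER3 and SER33 encode the first enzyme, phosphoglycerate dehydrogenase, as a pair of close copies, so some of each signal may come from the other and values for either are uncertain to that extent. SER3 signals at 300 s were 97.1, 72.3 and 74.0, against 18.2, 30.0 and 19.1 at steady state. SER33 signals at 300 s were 245, 214 and 191, against 123, 171 and 124 at steady state. No 300 s array of either gene overlapped the steady state, and the gap was wider for SER3. SER3 rose 3.68-fold at 300 s (log2 1.88 ± 0.21 SE, n = 3 each, limma adjusted p = 8.77e-06) and SER33 1.56-fold (log2 0.64 ± 0.15, limma adjusted p = 0.00437). The SER3 to SER33 signal ratio within an array was 2.35-fold higher at 300 s than at steady state, with no overlap between the groups. That ratio was looked at after the signals had been seen, so it is a description with no test. The steady-state signals of SER3 lay near the floor, so its fold change and that ratio rest on a dim reference. With a floor of 30, the log2 change of SER3 at 300 s was 1.42, and it still passed (limma adjusted p = 1.04e-06).

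SER1, the aminotransferase of the path, had signals of 518, 558 and 486 at 300 s, against 271, 345 and 307 at steady state. SER2, the phosphatase that releases free serine, had 419, 540 and 470 at 300 s, against 140, 139 and 109 at steady state. All 300 s arrays of both genes lay above all steady-state arrays. SER2 rose 3.68-fold (log2 1.88 ± 0.14 SE, n = 3 each, limma adjusted p = 1.63e-07) and SER1 1.70-fold (log2 0.76 ± 0.11, limma adjusted p = 0.000102). At 300 s, 0.499% of all genes tested had a larger increase than SER2 and 6.47% a larger one than SER1.

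Of the serine hydroxymethyltransferases, the cytosolic one rose and the mitochondrial one did not pass. SHM2, the cytosolic enzyme, had signals of 909, 990 and 1019 at 300 s, against 335, 396 and 360 at steady state. SHM1, the mitochondrial enzyme, had 306, 312 and 376 at 300 s, against 259, 323 and 291 at steady state. The SHM1 groups overlapped and those of SHM2 did not. SHM2 rose 2.68-fold (log2 1.42 ± 0.11 SE, n = 3 each, limma adjusted p = 3.44e-07). The log2 change of SHM1 was 0.19 with a 95% interval of -0.06 to 0.43 and did not pass (limma adjusted p = 0.235). That interval leaves out a change as large as that of SHM2, while a small change of SHM1 was not detectable with these arrays. The SHM2 to SHM1 ratio was 2.35-fold higher at 300 s than at steady state and 3.61-fold higher at 330 s, also chosen after the signals had been seen and not tested.

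MTD1 encodes the cytosolic NAD-dependent methylene-THF dehydrogenase, which oxidises the one-carbon unit that SHM2 makes. Its signals were 806, 920 and 927 at 300 s, against 257, 296 and 242 at steady state. All 3 arrays at 300 s were far above the steady state, and MTD1 rose 3.34-fold (log2 1.74 ± 0.12 SE, n = 3 each, limma adjusted p = 1.01e-07). MTD1 and SHM2 also followed each other most closely among the 10 genes, with a Pearson r of 0.985 over the 16 arrays, which share their scaling and their time course.

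Cleavage of glycine needs the aminomethyltransferase GCV1 (T protein), the glycine dehydrogenase GCV2 (P protein) and the lipoate carrier GCV3 (H protein), and all of them rose at 300 s. GCV1 signals were 543, 603 and 640 at 300 s, against 237, 255 and 226 at steady state. GCV2 signals were 330, 349 and 339 at 300 s, against 139, 215 and 158 at steady state. GCV3 signals were 2889, 3010 and 3439 at 300 s, against 1423, 1730 and 2238 at steady state. None of the groups overlapped, but the GCV3 steady-state arrays were widely spread (1797 ± 412, SD, n = 3). GCV1 rose 2.49-fold (log2 1.31 ± 0.15 SE, n = 3 each, limma adjusted p = 9.07e-06), GCV2 2.02-fold (log2 1.01 ± 0.18, limma adjusted p = 0.000734) and GCV3 1.76-fold (log2 0.81 ± 0.15, limma adjusted p = 0.000822).

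Without 300 s replicate 1, the 9 genes still passed at 300 s by limma, with log2 changes of 0.55 for SER33, 0.77 for SER1, 0.87 for GCV3, 1.03 for GCV2, 1.38 for GCV1, 1.47 for SHM2, 1.74 for SER3, 1.81 for MTD1 and 1.97 for SER2. Hybridization day held arrays of both groups on 2 days. On the day of the replicate 3 arrays, SER2 was at 470 at 300 s, against 109 at steady state, a log2 difference of 2.10, and the difference was 1.95 for SER3, 1.94 for MTD1, 1.10 for GCV2, 0.67 for SER1 and 0.62 for both SER33 and GCV3. On that day SHM2 was at 1019 at 300 s, against 360 at steady state, and GCV1 at 640, against 226. On the day shared by 300 s replicate 1 and steady-state replicate 2 the differences of these 9 genes ran from 0.52 for SER33 to 1.70 for SER3. SHM1 gave 0.37 on the first of these days and -0.08 on the second. With day as a block in the fit, 9 genes passed at 300 s.

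**Figure D2:**
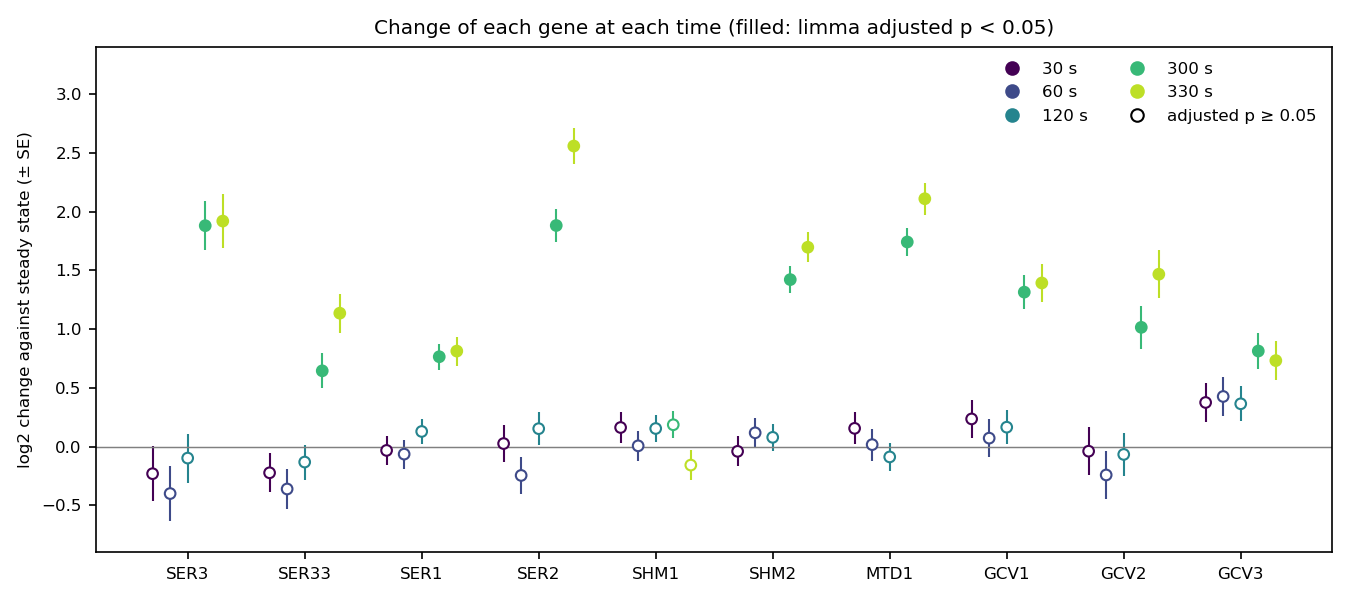
Log2 change against steady state (y axis, ± SE from the limma fit) of each of the 10 genes (x axis) at 30, 60, 120, 300 and 330 s, with filled points where the adjusted p was under 0.05. Points at 30, 60 and 120 s are all open and lie between -0.40 and 0.43, while 9 genes have filled points at 300 s and 330 s.

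At 330 s the same count of 9 genes was higher than at steady state and 0 were lower, where 13.3% of all genes were higher and 24.3% lower. SER2 reached 744 and 770 at 330 s, a rise of 5.89-fold (log2 2.56 ± 0.16 SE, limma adjusted p = 1.51e-08, n = 2 against 3). MTD1 reached 1164 and 1114, a rise of 4.31-fold, and SHM2 1113 and 1242, a rise of 3.24-fold. SER3 was at 89.4 and 76.3, 3.78-fold above steady state, and SER33 at 307 and 298, 2.20-fold above it. With a floor of 30, the log2 change of SER3 at 330 s was 1.46, where the main fit gave 1.92. SER1 stood at 538 and 537, a rise of 1.76-fold with very little spread. The glycine cleavage genes were also up, GCV2 by 2.76-fold at 449 and 479, GCV1 by 2.63-fold at 717 and 549, and GCV3 by 1.66-fold at 2636 and 3265. GCV3 passed at 330 s (limma adjusted p = 0.00316), but not without 330 s replicate 2 (0.0582), where the spread rests on the other groups since 1 array is left at 330 s, or with only the compared arrays in the fit (0.0558). SHM1 had 257 and 263, with a log2 change of -0.16 and a 95% interval of -0.43 to 0.12 (limma adjusted p = 0.351). With each array's median set equal, its log2 change at 330 s was -0.01.

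Between 330 s and 300 s, SER2 was the only one of the 10 genes called, higher at 330 s by 0.68 ± 0.16 on the log2 scale (limma adjusted p = 0.0399), where 0.647% of all genes were higher. Of 30 alternatives 15 no longer called it, including the fits that dropped 120 s replicate 1 (adjusted p = 0.0595), 300 s replicate 1 (0.0872) or 3 (0.117), or any single array of 30 s, 60 s or 330 s (0.0528 to 0.238). A fit that drops a 330 s array has 1 array left there, which is assumed to vary like the other groups. An unadjusted p under 0.05 was reached by 6 of the 10 genes and 1064 of all 5410, with SHM1 lower at 330 s and SER2, SER33, MTD1, SHM2 and GCV2 higher.

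Before 300 s no gene of the 10 was called. At 30 s limma called 0 of the 10 and 0% of all genes, with 1 of the 10 and 336 of all genes at an unadjusted p under 0.05. At 60 s it likewise called 0 of the 10 and 0% of all genes, with 2 of the 10 and 343 of all genes at an unadjusted p under 0.05. At 120 s limma called 0 of the 10 and 0.0739% of all genes, with 1 of the 10 and 586 of all genes at an unadjusted p under 0.05. GCV3 was the gene with an unadjusted p under 0.05 at all 3 times, with log2 changes of 0.38 ± 0.17, 0.43 ± 0.17 and 0.36 ± 0.15 (SE), and SER33 joined it at 60 s with -0.36 ± 0.17. On the day of the replicate 3 arrays alone, GCV3 differed from steady state by 0.06 at 30 s, 0.04 at 60 s and 0.08 at 120 s on the log2 scale, smaller than its differences over all arrays.

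Set directly against 120 s, the 300 s arrays were higher for the same enzymes. Here 9 of the 10 genes rose, where 11.3% of all genes did, with SER3 at log2 1.98, MTD1 at 1.83, SER2 at 1.73, SHM2 at 1.34, GCV1 at 1.15, GCV2 at 1.08, SER33 at 0.78, SER1 at 0.64 and GCV3 at 0.45. GCV3 passed narrowly (limma adjusted p = 0.042) and was not called in 14 of 32 alternatives, including the fits that dropped any single array of 60 s (adjusted p = 0.0556 to 0.0557) or 120 s (0.0779 to 0.124), or 300 s replicate 2 (0.0814) or 3 (0.140). SHM1 did not pass (log2 0.03, limma adjusted p = 0.882). Between 60 s and 120 s limma called 0 of the 10 genes and 0.0555% of all genes, with 1 of the 10, SER2 at log2 0.40, and 232 of all genes at an unadjusted p under 0.05. Over the whole course, limma's moderated F test called 9 of the 10 genes, all but SHM1 (limma adjusted p = 0.213), where 35.5% of all genes were called.

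On the 210 s array 2 genes of the serine path were already well above 120 s, and GCV1 and GCV2 were not. It is 1 array from 1 culture, so it entered no test, and it is set here against 120 s replicate 1, the array of the same hybridization day. SER2 had a signal of 283 at 210 s, against 145 at 120 s, and SER3 37.5, against 19.7, which is near the floor. These were the 2 genes of the 10 past 1.5-fold, at 1.94-fold and 1.91-fold, where 4.29% of all genes were past it. SER33 was at 184 against 141, SER1 at 437 against 337 and MTD1 at 365 against 285, increases of 1.30-fold, 1.30-fold and 1.28-fold. SHM2 was at 419 against 409, GCV1 at 285 against 310, GCV2 at 164 against 176 and GCV3 at 2614 against 2298. For GCV1 and GCV2, though not for GCV3, this 120 s array was the brightest at 120 s. The other 120 s arrays had 292 and 213 for GCV1 and 158 and 148 for GCV2. The 120 s means, 272 for GCV1 and 161 for GCV2, lay below the 210 s signals. Against 120 s replicate 1, the log2 difference had a median of 0.66 over the 4 serine synthesis genes. It was -0.10 over the 3 glycine cleavage genes, beside -0.03 over all genes. Against steady state, 9 of the 10 genes at 210 s lay above all 3 arrays, as 19.2% of all genes did.

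Set side by side as the mean log2 change of each group on each array, the 4 SER genes stood 0.71 above their steady-state mean at 210 s and the 3 GCV genes 0.26. At 300 s the SER mean was 1.36, 1.33 and 1.19 on replicates 1 to 3 and the GCV mean 0.96, 1.05 and 1.13. At 330 s the SER mean was 1.63 and 1.58 and the GCV mean 1.19 and 1.20. The SER mean minus the GCV mean was thus positive on the 210 s array and on all 5 later ones, at 0.45 at 210 s, 0.06 to 0.40 at 300 s and 0.38 to 0.44 at 330 s. It was negative on all 7 arrays from 30 s to 120 s, from -0.44 to -0.07, and from -0.20 to 0.12 at steady state. The 300 s replicate 3 array (0.06) and 120 s replicates 2 and 3 (-0.13 and -0.07) lay within that steady-state range. Their sign therefore depends on which steady-state array is the reference. Among the replicate 3 arrays, which share a day, the difference was -0.20 at steady state and -0.27 at 30 s and 60 s. The SER genes were not alike in their changes. At 300 s SER2 and SER3 were each at log2 1.88, above every GCV gene. SER33 (0.64) and SER1 (0.76) were below GCV3 (0.81), GCV2 (1.01) and GCV1 (1.31). At 330 s SER33 (1.14) and SER1 (0.81) were above GCV3 (0.73) and below GCV1 (1.39) and GCV2 (1.47). Between the group means the difference was 0.25 at 300 s, and 0.14 without steady-state replicate 3, 0.13 with a floor of 30 and 0.37 with quantile normalization. No test was made of this difference, because the genes were chosen with earlier results known.

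**Figure D3:**
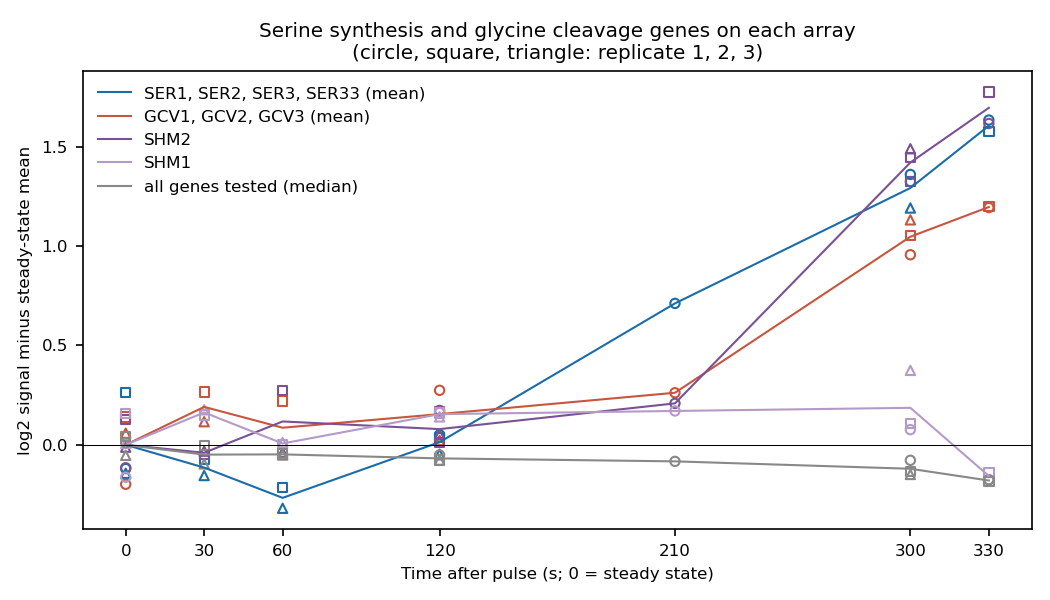
Log2 signal minus the steady-state mean (y axis) on each array against time after the pulse in s (x axis) for the mean of the 4 SER genes, the mean of the 3 GCV genes, SHM2, SHM1 and the median of all genes tested; points are arrays and lines join the means per time point. The SER mean is at 0.71 at 210 s while the GCV mean is at 0.26 and SHM2 at 0.21, and by 330 s the 3 lie between 1.19 and 1.78.

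Lists of genes that work beside these enzymes were counted in the same fit, in which 12.1% of all genes rose and 18.3% fell at 300 s. Of 14 folate and one-carbon partners 2 rose at 300 s and 0 fell, ADE3, the cytosolic trifunctional THF synthase, by log2 0.72 ± 0.12 (SE, limma adjusted p = 0.00049) and MET6, the methionine synthase that uses methyl-THF, by 0.66 ± 0.12 (0.00101). That count is near the share over all genes. The median of that list was 0.11, beside -0.12 over all genes. At 330 s 4 of the 14 had risen and 1 had fallen, where 13.3% of all genes had risen and 24.3% had fallen. Those besides ADE3 and MET6, named after their values were seen, were DFR1, the dihydrofolate reductase, at log2 0.63 ± 0.19, FOL1, an enzyme of folate synthesis, at 0.64 ± 0.17, and CDC21, the thymidylate synthase, which fell by 0.88 ± 0.25 (SE). MIS1, the mitochondrial counterpart of ADE3 (named after its value was seen), had signals of 161 ± 18.8 at 300 s and 109 ± 56.5 at steady state (SD, n = 3 each) and did not pass (limma adjusted p = 0.0673).

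Of 13 genes on other routes into or out of serine and glycine, 4 rose at 300 s and 0 fell, beside 12.1% and 18.3% of all genes. LCB1, a subunit of the serine palmitoyltransferase that starts sphingolipid synthesis, rose by log2 1.28 ± 0.24 (SE) with a wide spread of signals, 824 ± 379 at 300 s and 323 ± 71.8 at steady state (SD, n = 3 each). GLY1, the threonine aldolase that makes glycine from threonine, rose 2.14-fold at 300 s, to 564 ± 102, against 267 ± 63.9 at steady state (SD, n = 3 each, limma adjusted p = 0.000283). At 330 s it was at 318 ± 70.8 (SD, n = 2) and did not pass (limma adjusted p = 0.307). CYS4, which joins serine to homocysteine, rose by log2 0.69 ± 0.20 at 300 s (limma adjusted p = 0.0171), but did not pass without 300 s replicate 1 (0.0534), and rose by 0.97 ± 0.22 at 330 s. The fourth gene to rise at 300 s, named after its value was seen, was TRP5, the tryptophan synthase that takes up serine, by 0.47 ± 0.11. At 330 s CYS4 and LCB1 were higher, while CHO1, the phosphatidylserine synthase, and LCB2, the partner subunit of LCB1, were lower by log2 values of -0.68 ± 0.14 and -0.52 ± 0.11 (SE, the last pair named after their values were seen). The list median at 300 s was 0.09, beside -0.12 over all genes.

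The glycine cleavage enzyme also needs LPD1, the dihydrolipoamide dehydrogenase that it shares with pyruvate and 2-oxoglutarate dehydrogenases, and GCV3 carries lipoate. LPD1 was listed with LIP5, the lipoate synthase, LIP2, a lipoyl transferase, and AIM22, a lipoyl ligase that acts on the pyruvate and 2-oxoglutarate dehydrogenases. None of these 4 genes passed at 300 s by limma, and 1 (AIM22) had an unadjusted p under 0.05, as did 2261 of all 5410 genes. AIM22 had a log2 value of -0.45 ± 0.17 (SE, limma adjusted p = 0.0622, and 0.0107 without 300 s replicate 1), LIP2 of -0.34 ± 0.21 and LPD1 of -0.25 ± 0.15 (named after its value was seen). At 330 s AIM22 was lower than at steady state (limma adjusted p = 0.0164). The median of the 4 at 300 s was -0.29, beside -0.12 over all genes.

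BAS1, a transcription factor known to act with PHO2 on purine, glycine cleavage and one-carbon genes, rose by log2 0.88 ± 0.20 at 300 s (SE, limma adjusted p = 0.00408). Its signal was 63.6 ± 12.4 at 300 s and 34.3 ± 5.10 at steady state (SD, n = 3 each), and 76.6 ± 4.86 at 330 s (n = 2). It was the only one of 4 regulators to pass, where 12.1% of all genes rose and 18.3% fell. PHO2 had a mean signal of 12.1 at steady state and 12 at 300 s, which is the floor. A fall or a small rise of PHO2 could therefore not be seen. CHA4, the activator of serine catabolism, had a log2 value of 0.09 ± 0.24. The remaining regulator, GCN4 (named after its value was seen), was at log2 0.05 ± 0.12 at 300 s (SE, limma adjusted p = 0.779). At 330 s GCN4 was at 0.23 ± 0.14 (limma adjusted p = 0.206). Of 10 purine pathway genes listed 9 were tested, 8 rose at 300 s and 0 fell, beside 12.1% and 18.3% of all genes. ADE1 was at log2 1.60 ± 0.23, ADE2 at 1.57 ± 0.33 and ADE4 at 1.13 ± 0.29 (SE). The call of BAS1 and all 8 purine calls were also made without 300 s replicate 1. The purine list median was 1.04 at 300 s, beside 1.16 over the 10 serine, glycine and one-carbon genes and -0.12 over all genes.

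**Figure D4:**
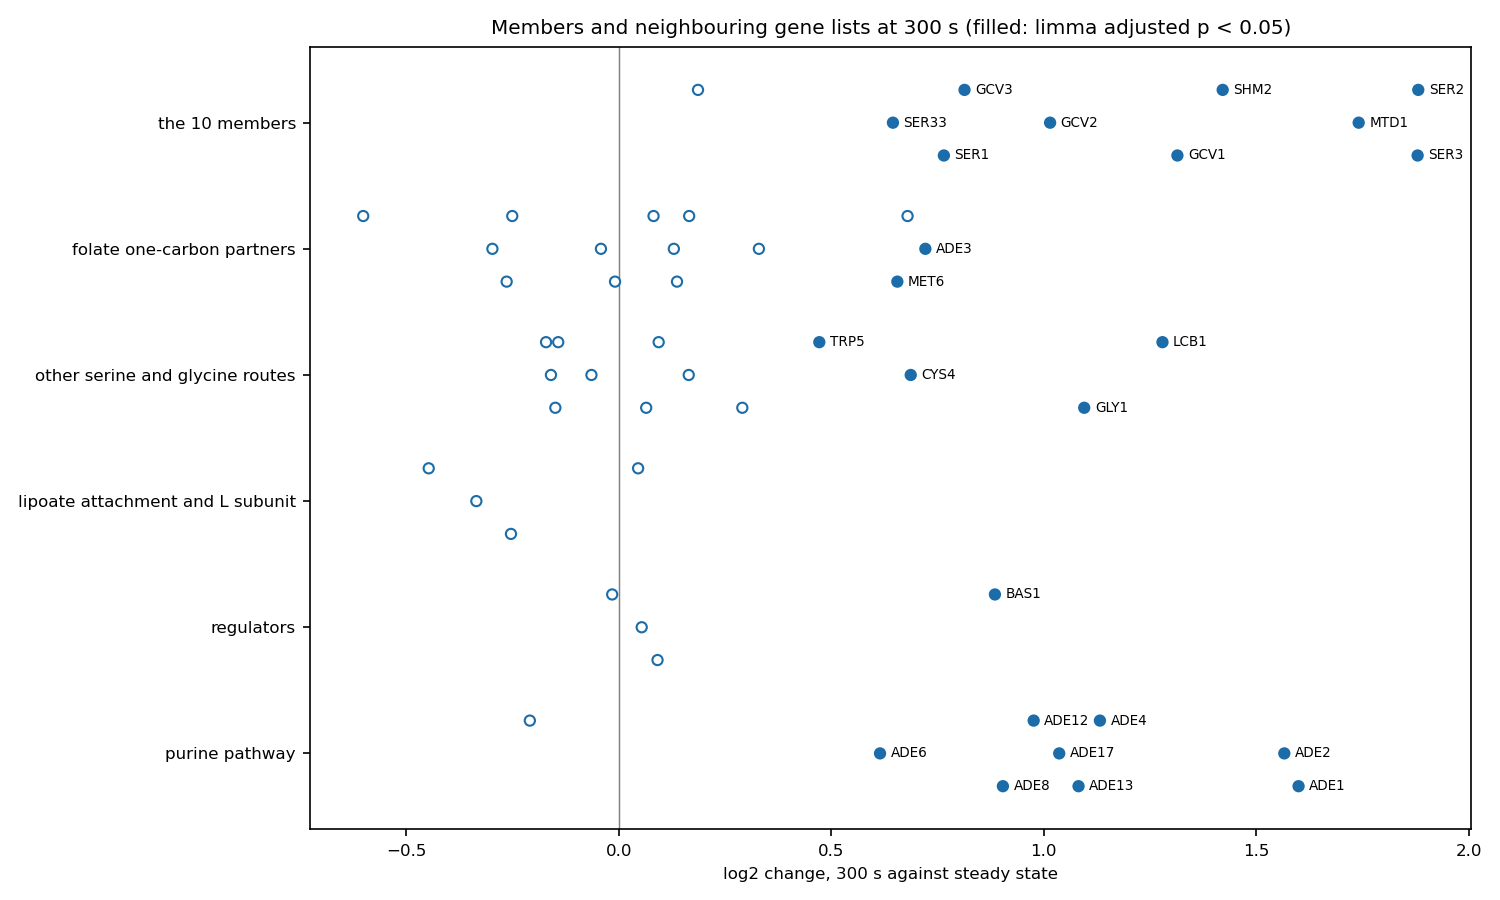
Log2 change at 300 s against steady state (x axis) of the 10 genes and of the tested genes of 5 neighbouring lists (rows), 1 point per gene, filled and named where the limma adjusted p was under 0.05. Of the lists, the purine pathway has 8 of its 9 tested genes filled, and the lipoate and L subunit list has 0 of 4.

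Outside the 10 enzymes, the genes whose log2 signal followed a given enzyme most closely over the 16 arrays were found by Pearson correlation, as a description of arrays that share a time course and a scaling. For SER3 these were FCY2, the purine and cytosine permease, with r of 0.985, YBL029W with 0.976 and the mitochondrial nuclease gene NUC1 with 0.973. For SHM2 they were RPC37, a subunit of RNA polymerase III, with 0.985, AAH1, the adenine deaminase, with 0.985 and MUP3, a methionine permease, with 0.985. MTD1 was followed by IMD4, an IMP dehydrogenase, with 0.990, RPC19, a subunit shared by RNA polymerases I and III, with 0.985 and AAH1 with 0.983. GCV2 was followed by MUP1, the high-affinity methionine permease, with 0.977, NUC1 with 0.967 and ADE17, a bifunctional enzyme of late purine synthesis, with 0.965. The log2 changes of these 10 genes at 300 s, which their choice by likeness to enzymes that rose had fixed in direction, ran from 0.73 for both RPC19 and MUP1 to 2.51 for AAH1. Among the 10 enzymes, r between SHM1 and the others ran from -0.24 with SER33 to 0.24 with GCV3, and was -0.15 with SHM2.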

How the data were processed

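The authors deposited 1 linear intensity per probe set and array. Per the submitters' processing notes GCOS, a program from the array's maker, was used, with version and settings not stated. Each array was rescaled to a mean of 150 after trimming 2% at each end, a floor of 12 (8% of the target) was applied, and signals were put on the log2 scale. Of 6504 probe sets with 1 annotated gene, all matched the RefSeq table of the R64 assembly, used for names only. These gave 5656 genes, each represented by its brightest probe set on average, and 246 that cleared the floor on under 2 arrays were dropped. limma 3.58.1 (R 4.3.3) fitted one linear model to the 15 arrays of 6 replicated times (eBayes with a variance trend, residual degrees of freedom 9, prior 6.31), and p-values were adjusted over all 5410 genes per contrast. Errors of log2 changes are standard errors of this fit. The number of arrays limits the precision. The fit was tested on simulated signals with noise drawn independently for each array, so effects shared by arrays of a day were not simulated. Alternatives changed the scaling, floor, filter, probe set rule, variance model, arrays in the fit and blocks for day, array-number series and pulse number, and left out each array in turn. Hybridization or scan days from the experiment files fell into 6 groups. Replicate numbers are the pulse numbers in the titles. The genes described and the lists beside them were chosen with earlier results of these data known. Named from each list were up to 3 called genes per direction with the largest change at 300 s, or the 2 largest values where fewer than 2 were called, and for SER3, SHM2, MTD1 and GCV2 the 3 genes of highest correlation.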

Additional observations from a re-analysis of the deposited data

Results flagged for a closer look

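The 210 s array enters no comparison between groups, and on it 9 of the 10 genes lay above every steady-state array, as 19.2% of all genes did. The signals at 210 s, against the highest steady-state array, were 37.5 against 30.0 for SER3, 184 against 171 for SER33 and 437 against 345 for SER1. SER2 was at 283 against 140. MTD1 was at 365 against 296, SHM2 at 419 against 396, SHM1 at 326 against 323, GCV1 at 285 against 255 and GCV3 at 2614 against 2238. GCV2, at 164, lay below its highest steady-state array of 215. This is 1 array of 1 culture, so no error can be given for these values.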

How the results depend on the processing

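At 300 s, 9 genes passed in all 32 alternatives run, and at 330 s in 28 of 30, with 8 in the others. No member was called at 30 s, 60 s or 120 s in any of 32 alternatives. The SER2 call between 300 s and 330 s gave a count of 0 without a variance trend, with only the compared arrays, with array-number series as a block, at an adjusted p under 0.01, with day as a random block and without steady-state replicate 2 and 300 s replicate 1, and from 0 to 1 when single arrays were left out; its adjusted p ran from 0.0259 to 0.497. SHM1 at 330 s turned to 0.0065 with array-number series as a block. The SER minus GCV difference at 330 s, 0.41, became 0.57 with quantile normalization and 0.29 with a floor of 30, and 0.31 to 0.47 without single steady-state or 330 s arrays; at 300 s, 0.25 became 0.13 to 0.37 over all alternatives. With median centring the median of all genes moved from -0.12 to -0.01 at 300 s and from -0.19 to -0.04 at 330 s; relative to all genes the 10 genes had a median of 1.28 at 300 s. With day as a fixed block no value could be had at 330 s. Pulse number as a replicate block gave 9 genes at 300 s and 9 at 330 s. Same-numbered arrays correlated by 0.04 to 0.42, and in 16 of 18 comparisons an array correlated best with its own number, a hint from the data only. Pulse number overlaps with day, since all replicate 3 arrays share a day. The exceptions were steady-state replicate 2 and 300 s replicate 1, which also share a day and correlated best with each other (0.30). Number and day were not told apart here. The random block and both settings that leave out several arrays, and the neighbouring lists without 300 s replicate 1, were chosen after seeing the data. The cause of these shifts was not tested.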
